A study of Mus musculus with 16 samples.

Results

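Genes of neutrophil granules and of the stefin A family, 10 in all, were followed through wounds of diabetic and non-diabetic mice. They were the granule protein genes Ngp, Camp, Ltf, Lcn2 and Mmp8, the secreted protein gene Retnlg, the receptor gene Csf3r and the stefin genes Stfa1, Stfa2 and Stfa3. The members were every array probe whose accession led to one of these symbols through RefSeq, which gave 11 probes for 10 genes, out of 39429 probes and 20832 gene symbols on the array. Camp had 2 probes and each of the other genes had 1. RNA came from whole homogenates of skin wounds with the surrounding intact skin of female mice. The WT group was C57BL/6J at 10 to 12 weeks of age, and the 3 db/db groups were 10-week-old mice of the strain C57BLKS/J Iar-+Leprdb/+Leprdb, homozygous for the db mutation of the leptin receptor gene Lepr. The db/db group was wounded without treatment, the db/db + estrogen group received daily estradiol benzoate on the wounds, 0.75 μg/g/day, dissolved in sesame oil, and db/db + vehicle wounds had this oil alone. Each of these 4 groups had 2 arrays labelled day 7 and 2 arrays labelled day 14 after wounding, 16 arrays in all. Genotype and strain cannot be told apart, because every db/db mouse was C57BLKS/J Iar and every WT mouse was C57BL/6J. No source used here says whether the 2 arrays of a group came from separate mice, so the p-values measure only the spread between these arrays. The tables of the study place changes of several of these genes under the other labelled day than the deposited arrays do, so arrays are named here by their labels throughout, and which day assignment holds could not be settled from the files.

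Neutrophils load their granules while they mature in the bone marrow. Primary granule proteins such as myeloperoxidase are made first, and the secondary and tertiary granule proteins are made later under the transcription factor encoded by Cebpe. Ngp encodes a cystatin-like protein of the granules, Camp the precursor of the cathelicidin antimicrobial peptide, Ltf the iron-binding lactotransferrin, Lcn2 a lipocalin that binds bacterial siderophores, and Mmp8 the neutrophil collagenase. Retnlg encodes a secreted resistin-like protein found in bone marrow and neutrophils, and Csf3r encodes the receptor for granulocyte colony-stimulating factor. The stefins A are cytosolic inhibitors of cysteine cathepsins that are made by neutrophils and by stratified epithelium, so that in skin their RNA has more than one possible source. In a whole-wound sample, fewer cells of a type and less RNA per cell cannot be told apart.

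The bases upstream of the genes that moved together are shown here because the members formed groups in the results, the granule genes with Retnlg and the 3 stefin genes. Csf3r, which belonged to neither, is not shown. The RefSeq promoter table (GRCm38.p6) held 1 entry for each of the 10 genes, and the 250 bases before the start of transcription were searched. Camp, Ngp, Ltf and Mmp8 lie on chromosome 9, Retnlg and the 3 stefin genes on chromosome 16, Lcn2 on chromosome 2 and Csf3r on chromosome 4. The windows shown are chr9:110419558-110419807 (plus strand) for Ngp, chr9:109849457-109849706 (minus strand) for Camp, chr9:111019042-111019291 (plus strand) for Ltf, chr9:7558179-7558428 (plus strand) for Mmp8, chr2:32387740-32387989 (minus strand) for Lcn2, chr16:48872358-48872607 (plus strand) for Retnlg, chr16:36276898-36277147 (plus strand) for Stfa1, chr16:36408364-36408613 (minus strand) for Stfa2 and chr16:36455393-36455642 (minus strand) for Stfa3. Each is written 5′ to 3′ on the strand of the gene, and its last base lies next to the start site. Capitals mark matches on either strand to TTGCNNAA, TTTAAAA or GATAAG, which were chosen with the sequences in view, and no 2 of these matches overlap.
Ngp: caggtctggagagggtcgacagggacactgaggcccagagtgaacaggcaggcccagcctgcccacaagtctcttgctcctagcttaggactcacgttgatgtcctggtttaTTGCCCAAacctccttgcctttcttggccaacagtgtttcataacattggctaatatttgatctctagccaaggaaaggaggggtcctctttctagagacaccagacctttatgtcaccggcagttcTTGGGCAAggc
Camp: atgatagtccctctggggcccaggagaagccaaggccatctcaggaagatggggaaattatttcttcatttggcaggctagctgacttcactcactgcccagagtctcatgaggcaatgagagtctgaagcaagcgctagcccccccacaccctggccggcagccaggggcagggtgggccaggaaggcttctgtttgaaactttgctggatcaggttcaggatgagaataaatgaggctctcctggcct
Ltf: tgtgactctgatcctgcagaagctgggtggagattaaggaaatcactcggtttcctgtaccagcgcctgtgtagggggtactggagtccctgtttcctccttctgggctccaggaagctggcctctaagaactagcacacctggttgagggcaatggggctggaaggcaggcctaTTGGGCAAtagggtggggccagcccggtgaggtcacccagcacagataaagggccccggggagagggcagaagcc
Mmp8: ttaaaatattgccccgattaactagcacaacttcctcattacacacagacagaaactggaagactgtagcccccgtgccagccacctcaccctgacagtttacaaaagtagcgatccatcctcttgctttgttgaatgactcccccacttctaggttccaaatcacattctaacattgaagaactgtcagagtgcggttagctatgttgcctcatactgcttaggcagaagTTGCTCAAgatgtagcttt
Lcn2: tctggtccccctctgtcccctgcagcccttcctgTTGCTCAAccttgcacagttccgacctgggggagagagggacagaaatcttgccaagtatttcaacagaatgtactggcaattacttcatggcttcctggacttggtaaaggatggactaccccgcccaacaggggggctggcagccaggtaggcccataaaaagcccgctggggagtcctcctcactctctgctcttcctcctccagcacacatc
Retnlg: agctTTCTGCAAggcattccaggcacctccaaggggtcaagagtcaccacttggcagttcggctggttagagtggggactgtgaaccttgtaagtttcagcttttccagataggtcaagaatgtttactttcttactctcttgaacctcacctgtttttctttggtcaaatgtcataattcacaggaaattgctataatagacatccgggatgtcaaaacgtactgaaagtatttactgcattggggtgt
Stfa1: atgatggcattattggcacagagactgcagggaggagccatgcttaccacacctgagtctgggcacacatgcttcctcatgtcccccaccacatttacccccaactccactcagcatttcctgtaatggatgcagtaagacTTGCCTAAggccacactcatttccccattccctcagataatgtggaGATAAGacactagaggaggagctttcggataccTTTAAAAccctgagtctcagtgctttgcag
Stfa2: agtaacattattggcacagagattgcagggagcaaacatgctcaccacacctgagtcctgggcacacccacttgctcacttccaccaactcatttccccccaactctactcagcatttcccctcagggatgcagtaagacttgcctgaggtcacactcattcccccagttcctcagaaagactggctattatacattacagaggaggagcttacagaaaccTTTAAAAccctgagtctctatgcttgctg
Stfa3: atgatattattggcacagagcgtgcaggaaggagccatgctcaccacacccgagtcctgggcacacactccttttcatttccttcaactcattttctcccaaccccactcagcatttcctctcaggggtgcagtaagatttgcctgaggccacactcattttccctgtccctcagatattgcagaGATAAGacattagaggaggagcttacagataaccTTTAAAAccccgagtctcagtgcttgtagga

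The letters TTGCNNAA were present in 6 of the 10 member windows, those of Ngp, Ltf, Lcn2, Mmp8, Retnlg and Stfa1, and in 9.57% of the 32841 promoter windows of the same length. Ngp held 2 matches, from 138 to 131 and from 11 to 4 bases before the start site, and Ltf held 1 from 75 to 68. TTTAAAA stood in all 3 stefin windows, from 30 to 24 bases before the start site in Stfa1, from 29 to 23 in Stfa2 and from 31 to 25 in Stfa3, and in 8.1% of all windows. GATAAG was present in Stfa1 and Stfa3 and in 6.55% of all windows. Camp and Csf3r held none of the 3. In global alignments the 3 stefin windows had 80.2% to 83.5% of aligned positions identical, against 42.4% to 52.5% for the other 42 pairs of member windows. These matches describe letters and were not tested against the measurements.

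A level is given below as the log2 of the background-subtracted spot intensity minus the log2 of the 75th percentile of its array, so that a level of 0 equals that percentile. The 75th percentile ran from 1091 to 2548 over the arrays, between 70.1% and 79.0% of probes were well above background, and no spot was saturated. Pairs of groups were compared with limma in a model of all 8 groups, and a gene is called, and is said to rise or fall, where the unadjusted two-sided p was below 0.05 and the fold change was above 2. The Benjamini-Hochberg adjusted p over all probes tested is given beside it. The members and the other gene lists used below were chosen with earlier results of these data known. The share of all probes called, set beside a count, is therefore no test of a list. A probe entered the test of a pair of groups if both arrays of either group read it well above background, and all 10 genes passed, except Ngp for db/db + estrogen vs WT at labelled day 7. At labelled day 7 several passed through 1 group alone, which was the brighter one. This was so for Ngp and Retnlg through db/db against WT and through db/db + vehicle against WT, for Retnlg through db/db + estrogen against WT, and for Ngp through db/db and through db/db + vehicle against db/db + estrogen. On every array labelled day 7, replicate 1 lay on the first slide and replicate 2 on the second. Of the arrays labelled day 14, both db/db arrays lay on the third slide and both WT arrays on the fourth, with 1 estrogen and 1 vehicle array on each.

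At labelled day 7 the granule genes stood apart in the untreated db/db wounds. Ngp had levels of 2.67 and 1.09 in db/db. It was at -6.11 and -4.21 in db/db + vehicle and at -6.21 and -9.40 in db/db + estrogen. In WT it was at -8.48 and -6.61. Both WT values and the second estrogen value were not well above background, and both db/db arrays lay above the arrays of every other group. With WT taken no lower than the lowest signal well above background on each array, the level in db/db was 355-fold higher. The fitted log2 fold change was 9.42 ± 1.18 (SE, limma adjusted p = 0.0012). The size depended on the background correction, as given below, so 355 is not a lower bound.

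Camp, the cathelicidin gene, had levels of 4.11 and 2.66 in db/db at labelled day 7, while the other 6 arrays of that day lay between -4.02 and -1.37. Its second probe had the same order, with 2.88 and 1.53 in db/db against -4.64 to -2.41. Ltf had levels of 3.25 and 1.76 in db/db, and the other 6 arrays lay between -6.79 and -3.28. For neither gene did the db/db arrays overlap with any other group of that day. Against WT, Camp rose by a log2 fold change of 7.08 ± 0.80 (SE) and Ltf by 8.13 ± 0.74, with limma adjusted p of 0.00074 and 0.00023.

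Lcn2 and Mmp8 had a graded order. Lcn2, which epithelium also makes, had levels of 5.78 and 5.63 in db/db, 4.36 and 4.19 in db/db + vehicle, 1.50 and 2.63 in db/db + estrogen and 2.23 and 1.41 in WT. Mmp8 had levels of 2.06 and 1.07 in db/db, -1.49 and -1.41 in db/db + vehicle, -5.12 and -4.26 in db/db + estrogen and -3.42 and -3.92 in WT. The vehicle arrays of both genes therefore lay between db/db and the other 2 groups. Retnlg followed the same order, with 4.63 and 4.15 in db/db, 1.84 and 0.91 in db/db + vehicle, -5.55 and -2.26 in db/db + estrogen, and -2.60 and -7.98 in WT, where the second array was not well above background. The vehicle arrays of Ngp also lay between db/db and the other groups, though the lower, at -6.11, was close to the higher estrogen array at -6.21. For Camp and Ltf the vehicle and WT arrays overlapped. Over all 16 arrays Lcn2 spanned 4.36 on the log2 scale, Mmp8 7.17 and Ltf 10.04. For Ngp and Retnlg the lowest array was not well above background, so their ranges have no measured lower end.

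**Figure D1:**
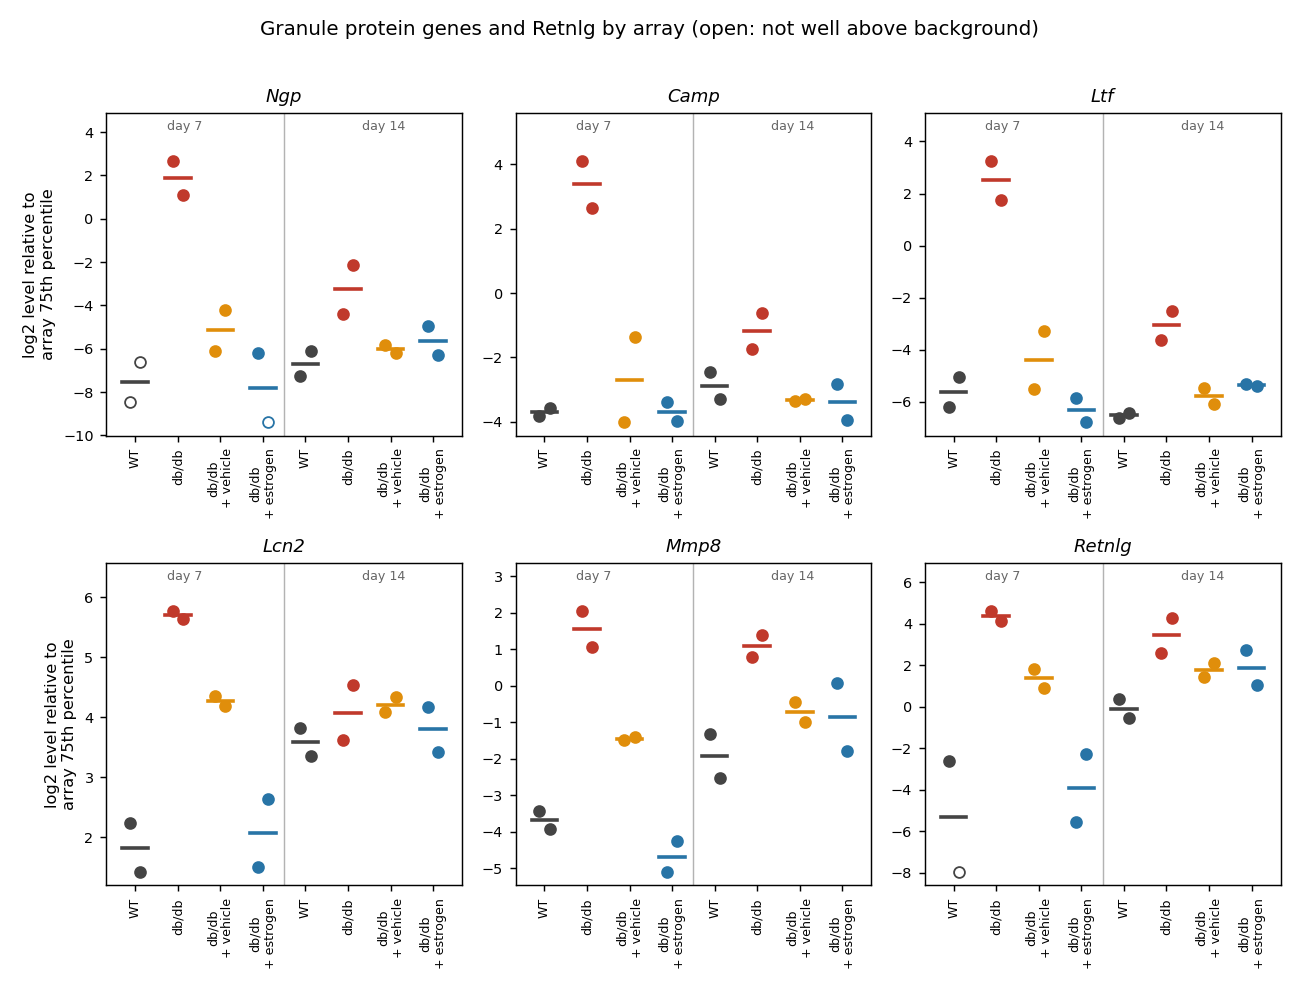
Log2 level relative to the 75th percentile of the array (vertical axis) for 6 genes in the 8 groups, with the arrays labelled day 7 on the left of each panel and those labelled day 14 on the right. Each point is 1 array, bars are group means and open points were not well above background; the 2 db/db arrays labelled day 7 of Ngp lie at 2.67 and 1.09, above all others.

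In db/db vs WT at labelled day 7, 7 of the 10 genes were called, against 14.2% of the 29746 probes tested. Ngp, Camp, Ltf, Lcn2, Mmp8 and Retnlg were higher in db/db and Stfa3 was lower. The 6 higher genes also had adjusted p below 0.05. Of these, Ngp and Retnlg entered the test through db/db alone, the brighter group. Camp, Ltf, Lcn2 and Mmp8 were well above background on all 16 arrays. Retnlg rose by 9.68 ± 1.54 (SE, limma adjusted p = 0.0039). Since 1 of its 2 WT arrays was well above background, this size is uncertain, and it ran from 6.99 to 12.36 when 1 array was left out and was 8.99 with a floor on dim signals. Mmp8 rose by 5.24 ± 0.61 (adjusted p = 0.00088) and Lcn2 by 3.88 ± 0.44 (adjusted p = 0.00074). The median log2 fold change was 4.56 over the 10 genes and -0.05 over all probes tested. Where WT was near the background, the size depended on the background correction: with normexp the log2 fold change of Ngp was 5.73, that of Ltf 6.25 and that of Retnlg 7.74, still called.

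Primary granule genes moved along with these members. Of the 6 tested, Mpo, Elane, Prtn3, Ctsg, Ms4a3 and Lyz2, all 6 rose in db/db vs WT at labelled day 7, with a median log2 fold change of 3.18. Mpo, which encodes myeloperoxidase, rose by 5.72 ± 0.84 (SE, limma adjusted p = 0.0027), and Ctsg, the cathepsin G gene, by 6.14 ± 0.45 (adjusted p = 8e-05). Cebpe, the regulator of secondary granule genes, had levels of 0.20 and -1.32 in db/db against -4.32 and -5.69 in WT, a rise of 4.44 ± 0.54 (adjusted p = 0.001). Of 11 genes that regulate granulocyte formation, 5 rose, among them Gfi1, Spi1 and Csf3, the ligand gene of the Csf3r product. Csf3 had levels of -0.91 and -0.86 in db/db and of -6.10 and -8.73 in WT, of which 1 WT array was well above background. Of the 12 other genes of later granules with a probe, 7 rose and 1 fell, with a median log2 fold change of 1.90. Of the 20 genes of neutrophil surface and signalling proteins with a probe, 16 rose and none fell. Of all probes tested in this pair, 5.71% were called higher and 8.49% lower. Ceacam10, Fcnb and Csf2 of these lists were well above background on no WT array of that day, so they entered the test through db/db alone. Csf3, with 1 such WT array, entered in the same way. Fpr1, a formyl peptide receptor gene, rose by 4.70 ± 0.83 (adjusted p = 0.0062). Of the 5 tested chemokine genes that attract neutrophils, 4 rose, and Cxcl2 rose by 4.51 ± 0.89 (adjusted p = 0.01).

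Marker genes of several other cell types also differed in level. The summed level of the erythroid marker genes Hba-a1, Alas2 and Slc4a1, each taken as a ratio to the 75th percentile, was 66.5 to 114 in db/db at labelled day 7, 7.85 to 13.9 in WT, 9.56 to 27.8 in db/db + vehicle and 5.55 to 25.6 in db/db + estrogen. All 3 rose in db/db vs WT. Of the 9 macrophage markers 6 rose, and their sum was 159 to 169 in db/db and 59.6 to 98.9 in WT. The sum of the 10 keratinocyte markers was 374 to 553 in db/db and 755 to 785 in WT, and all 10 were well above background on every array. Of the 6 tested mast cell markers 3 rose, with a sum of 29.4 to 42.7 in db/db and 8.77 to 17.7 in WT, and 2 of the 4 B cell markers rose, with 0.380 to 0.679 against 0.172 to 0.254. Of the 6 T cell markers 3 fell, with sums that overlapped, 5.35 to 5.61 against 5.49 to 8.95. The sum of the fibroblast markers was 717 to 734 in db/db and 854 to 969 in WT. The sums of the adipocyte, eosinophil and skeletal muscle markers overlapped between db/db and WT. The part of these cells in the results for the granule genes was not tested. Ly6g, a surface marker of mouse neutrophils, had no named probe.

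Topical estrogen was compared with untreated db/db next. At labelled day 7, 9 of the 10 genes were called in db/db + estrogen vs db/db, all lower with estrogen and all but Csf3r, against 10% of 30189 probes. After adjustment 8 were below 0.05, and Stfa3 was not (limma adjusted p = 0.066). The log2 fold change was -8.82 ± 0.74 (SE) for Ltf, -7.08 ± 0.80 for Camp, -6.25 ± 0.62 for Mmp8 and -3.64 ± 0.44 for Lcn2, with limma adjusted p of 0.00037, 0.0014, 0.00063 and 0.0019. It was -9.68 ± 1.18 for Ngp and -8.29 ± 1.54 for Retnlg. Ngp entered this test through db/db alone, the brighter group, and 1 of its 2 estrogen arrays was well above background. The size for Ngp is therefore uncertain, and its value was -8.73 with a floor on dim signals and -6.11 with normexp, called in both. With estrogen, Ltf lay at -5.84 and -6.79. The lowest signal well above background on those arrays was at -7.00 and -7.49, so the size for Ltf is also uncertain. When 1 array was left out, Retnlg ran from -9.94 to -6.65. The median over the 10 genes was -5.84, and that over all probes was 0.04. For each of the 9 called genes the 2 estrogen arrays lay below the 2 db/db arrays, on both slides. Genes called with 2 arrays a group mostly separate in this way, so it adds nothing to the call. The share of all probes that separate was not counted.

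The vehicle group also lay below untreated db/db. In db/db + vehicle vs db/db at labelled day 7, 5 of the 10 genes were called, Ngp, Camp, Ltf, Lcn2 and Mmp8, all lower with vehicle, against 4.94% of 29787 probes. The log2 fold change was -6.91 ± 0.74 for Ltf (SE, limma adjusted p = 0.013), -6.08 ± 0.80 for Camp (adjusted p = 0.023) and -7.03 ± 1.18 for Ngp (adjusted p = 0.049). It was -3.01 ± 0.61 for Mmp8 and -1.43 ± 0.44 for Lcn2, with adjusted p of 0.077 and 0.18. Retnlg had a log2 fold change of -3.01 ± 1.54 with an unadjusted p of 0.078 in the limma fit, and was called when only the 4 arrays compared were fitted, with normexp at -3.07 and with a floor on dim signals. The vehicle difference of Camp was -8.13 on the first slide and -4.03 on the second. The same 3 erythroid genes fell in both comparisons with db/db, whereas of the 9 macrophage markers only Marco fell with estrogen and none fell with vehicle. Both comparisons share the 2 db/db arrays.

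The 2 treated groups were then compared with each other. In db/db + estrogen vs db/db + vehicle at labelled day 7, 8 of the 10 genes were called, all lower with estrogen, against 9.09% of 30150 probes, and 5 of them had an adjusted p below 0.05. Those 5 were Stfa1, Stfa2, Stfa3, Lcn2 and Mmp8. Mmp8 had a log2 fold change of -3.24 ± 0.61 (SE, limma adjusted p = 0.022), Lcn2 of -2.21 ± 0.44 (adjusted p = 0.026) and Retnlg of -5.28 ± 1.54 (adjusted p = 0.082). Camp had a log2 fold change of -0.99 ± 0.80 and its arrays overlapped between the groups, though without the first vehicle array it was called at -2.32. Ngp was called at -2.65 ± 1.18 (adjusted p = 0.22) and Ltf at -1.92 ± 0.74 (adjusted p = 0.17), and neither call held with normexp, where the values were -0.47 and -0.66. Both calls also ended without the second vehicle array, at -1.70 for Ngp and -0.80 for Ltf, and without the second estrogen array, at -1.06 for Ngp and -1.44 for Ltf. Retnlg was no longer called without the first estrogen array, at -3.64.

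The other neutrophil genes were read between the treated groups as well. None of the 5 tested primary granule genes was called between estrogen and vehicle, and Mpo had a log2 fold change of -1.43 ± 0.84 (SE, limma adjusted p = 0.35). Of the 19 tested genes of neutrophil surface and signalling proteins, 13 fell and 1 rose. Of all probes tested in this pair, 4.37% were called lower and 4.72% higher. S100a8 and S100a9 encode the subunits of calprotectin, which neutrophils hold in quantity and wound keratinocytes also make. S100a8 had levels of 0.92 and 2.69 with estrogen, against 7.61 and 7.31 with vehicle, 7.14 and 7.46 in db/db and 6.56 and 6.55 in WT, so that the estrogen arrays alone stood apart. It fell by 5.66 ± 0.45 against vehicle (adjusted p = 0.00091), and S100a9 fell by 4.76 ± 0.51 (adjusted p = 0.0029). Csf3 fell by 5.59 (adjusted p = 0.025), with 1 of its 2 estrogen arrays well above background. Cxcl5 fell by 6.69 ± 1.15 (adjusted p = 0.015), and 4 of the 5 tested neutrophil chemokine genes fell in all. Of the 12 other genes of later granules with a probe, 11 were tested, of which 6 fell and 1 rose. Mmp9, the gelatinase gene, fell by 4.50 ± 1.03 (adjusted p = 0.041), and Slpi, a gene for an inhibitor of neutrophil elastase, fell by 4.41 ± 0.43 (adjusted p = 0.0019). Which cells of the wound held the RNA of the genes in this paragraph was not tested.

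Relative to WT at labelled day 7, db/db + estrogen had 3 of the 9 genes tested called, Stfa1, Stfa2 and Stfa3, all lower, against 8.28% of 29774 probes. The granule genes that were tested had log2 fold changes between -1.02 for Mmp8 and 0.24 for Lcn2, and Retnlg had 1.38 ± 1.54 (SE). Db/db + vehicle had 3 of 10 called, Lcn2, Mmp8 and Retnlg, all higher than WT, against 10.4% of 29685 probes. Lcn2 rose by 2.45 ± 0.44 (limma adjusted p = 0.01), Mmp8 by 2.22 ± 0.61 (adjusted p = 0.047) and Retnlg by 6.66 ± 1.54 (adjusted p = 0.025). Retnlg entered this test through db/db + vehicle alone, the brighter group. Its second WT array, at -7.98, was not well above background, so the size for Retnlg is uncertain. Ngp was not called with vehicle against WT, where its adjusted p was 0.23. Its level there was 2.71-fold higher with WT taken no lower than the lowest signal well above background on each array. Without the first vehicle array 6 genes were called in this comparison.

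In db/db vs WT at labelled day 7 the stefin A genes did not rise with the granule genes, though both fell with estrogen against untreated db/db. At labelled day 7 Stfa1 had levels of 7.27 and 7.34 in WT, 6.39 and 6.69 in db/db and 7.25 and 6.97 in db/db + vehicle. With estrogen it was at 4.80 and 4.60, and on the other 14 arrays of the study it lay between 5.75 and 7.34. Stfa2 was at 4.19 and 5.31 in WT, 4.88 and 4.92 in db/db, 4.16 and 3.16 in db/db + vehicle and -0.47 and -0.57 in db/db + estrogen. Stfa3 was at 7.11 and 7.37 in WT, 6.03 and 6.28 in db/db, 7.04 and 6.85 in db/db + vehicle and 4.78 and 4.35 in db/db + estrogen. In all 3 genes the 2 estrogen arrays of that day were below each of the other 14 arrays.

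Against vehicle, the log2 fold change was -4.18 ± 0.64 for Stfa2 (SE, limma adjusted p = 0.0098), -2.41 ± 0.26 for Stfa1 (adjusted p = 0.0031) and -2.38 ± 0.45 for Stfa3 (adjusted p = 0.022). On the first slide the differences were -4.63, -2.45 and -2.27, and on the second -3.72, -2.37 and -2.50. Against untreated db/db, it was -5.42 ± 0.64 for Stfa2, -1.84 ± 0.26 for Stfa1 and -1.59 ± 0.45 for Stfa3, of which the first 2 had adjusted p of 0.0017 and 0.0037. Against WT it was -5.27 ± 0.64, -2.60 ± 0.26 and -2.67 ± 0.45 in the same order, with adjusted p of 0.0015, 0.00064 and 0.0086. None of the 3 was called with vehicle against db/db, and the log2 fold change of Stfa2 there was -1.24 ± 0.64, which was called when only the 4 arrays compared were fitted. Between db/db and WT, Stfa3 was called at -1.08 ± 0.45 (adjusted p = 0.13), which was lost in all 4 fits that left out 1 of the arrays compared and with quantile normalization at -0.93. Near-identical stefin copies lie beside these genes, and how far a probe reads its neighbours is unknown.

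**Figure D2:**
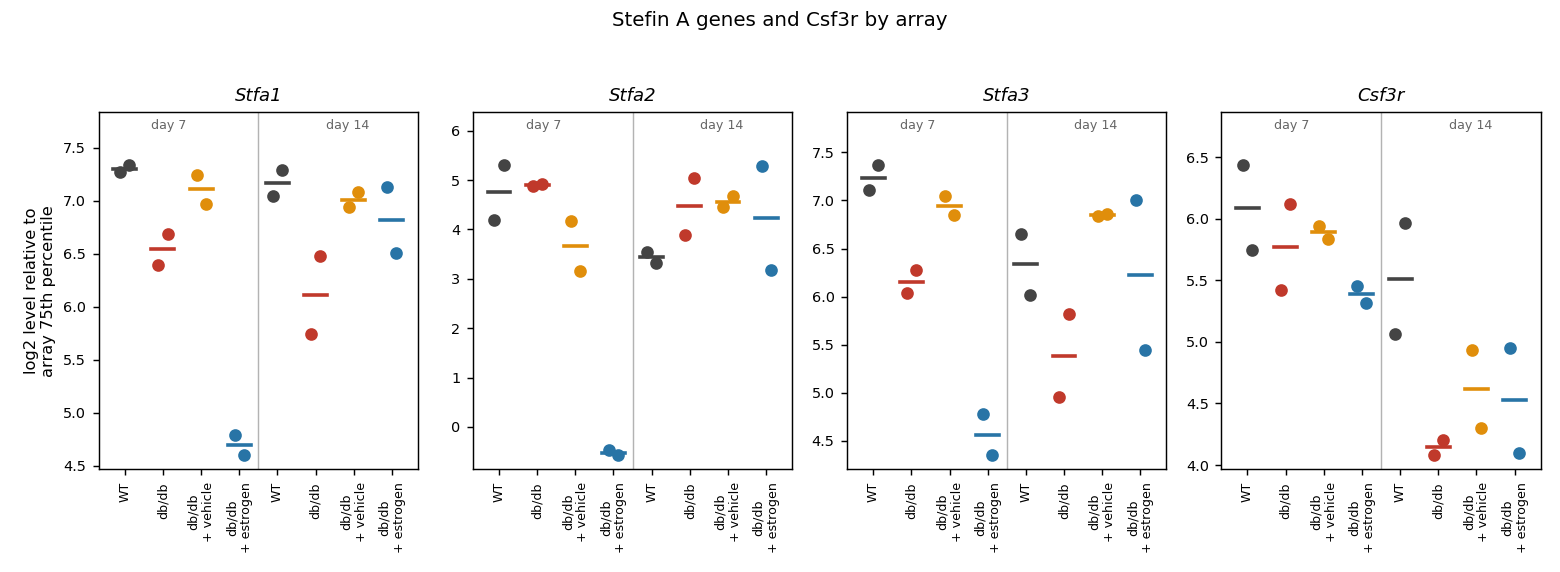
Log2 level relative to the 75th percentile of the array (vertical axis, different range in each panel) for the 3 stefin A genes and Csf3r in the 8 groups, labelled day 7 on the left and labelled day 14 on the right of each panel. Each point is 1 array and bars are group means; in the stefin panels the 2 db/db + estrogen arrays labelled day 7 lie lowest, at -0.47 and -0.57 for Stfa2.

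The relatives of the stefins were read from 11 genes with a probe. Of these, 7 fell in db/db + estrogen vs db/db + vehicle at labelled day 7 and none rose, and the median log2 fold change was -2.30 against 0.01 over all probes. The 7 were the stefin-like genes Stfa2l1, Cstdc4, Cstdc5, Cstdc6, Csta1, Csta2 and Csta3, and the more distant cystatin genes Cstb, Cst3, Cst6 and Cst7 were not called. Csta3 had levels of -3.29 and -3.57 with estrogen, against 3.91 and 1.83 with vehicle, 1.93 and 1.93 in db/db and 1.62 and 2.09 in WT. It fell by 6.30 ± 0.71 against vehicle (SE, limma adjusted p = 0.0034). Cstdc4 and Csta2 also rose in db/db vs WT, by 4.66 ± 0.65 (adjusted p = 0.0021) and 1.33 ± 0.55 (adjusted p = 0.13). In db/db + vehicle vs db/db, Cstdc4 at -1.87 ± 0.65 and Stfa2l1 at -1.49 ± 0.64 were called lower and Cstdc6 at 1.35 ± 0.56 higher, with adjusted p of 0.23, 0.31 and 0.30. Stefins inhibit cysteine cathepsins, and of 7 cathepsin genes (Ctsb, Ctsh, Ctsl, Ctss, Ctsk, Ctsc and Ctsz) none was called in any of the 4 main comparisons of labelled day 7, with medians from -0.50 to 0.68.

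The keratinocyte markers are given here because epithelium makes stefins. Their sum was 498 to 648 with estrogen at labelled day 7 and 788 to 887 with vehicle. Of the 10 markers, 2 fell against vehicle, Krt6a at -3.88 (limma adjusted p = 0.029) and Krt16 at -3.70 ± 0.37 (adjusted p = 0.0021), which encode keratins of activated epidermis. Krt16 had a mean level of 3.85 over the 2 estrogen arrays and lay between 6.09 and 8.01 on the other arrays. The other 8, among them Krt5, Krt14, Krt1 and Ivl, were not called and had log2 fold changes between -1.27 and 0.34. Against untreated db/db, where the stefins also fell with estrogen, the sum of the keratinocyte markers was 374 to 553 in db/db. There 2 of the 10 markers rose, Krt5 and Trp63, 2 fell, Krt6a and Krt16, and the median was 0.58. The part of keratinocytes in the stefin results was not tested.

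Csf3r moved with neither group. Its probe was not checked for reading other transcripts. It was well above background on all 16 arrays, at levels from 4.08 to 6.44, a range of 2.36. At labelled day 7 it had 6.44 and 5.74 in WT, 5.42 and 6.12 in db/db, 5.94 and 5.84 in db/db + vehicle and 5.46 and 5.32 in db/db + estrogen. None of the comparisons of that day called it, and the log2 fold change was -0.32 ± 0.40 (SE) in db/db vs WT and -0.39 ± 0.40 in db/db + estrogen vs db/db. At labelled day 14 its log2 fold change in db/db vs WT was -1.37 ± 0.40 (limma adjusted p = 0.034), with 4.08 and 4.20 in db/db against 5.06 and 5.96 in WT. Without the second WT array the value was -0.92 and was not called. Csf3r was thus the 1 member of the 10 not called in any comparison of labelled day 7, whereas the chemoattractant receptor genes Cxcr2, Cxcr1, Fpr1 and Fpr2 each rose in db/db vs WT and fell with estrogen.

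At labelled day 14 the differences were smaller and untreated db/db remained highest for most granule genes. Ngp had levels of -4.38 and -2.13 in db/db, -7.27 and -6.12 in WT, -5.84 and -6.22 in db/db + vehicle and -4.97 and -6.31 in db/db + estrogen. Ltf had -3.61 and -2.52 in db/db, -6.60 and -6.42 in WT, -5.49 and -6.06 in db/db + vehicle and -5.30 and -5.39 in db/db + estrogen. For both genes the db/db arrays lay above those of the other 3 groups. Mmp8 had 0.80 and 1.38 in db/db and -2.52 to 0.07 on the other 6 arrays. Retnlg had 2.62 and 4.27 in db/db and overlapped with estrogen, at 2.73 and 1.05. Lcn2 lay between 3.36 and 4.55 on all 8 arrays and its groups overlapped.

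In db/db vs WT at labelled day 14, 6 of the 10 genes were called, against 18.1% of 30279 probes. Ngp, Ltf, Mmp8 and Retnlg were higher in db/db, and Csf3r and Stfa1 were lower. Of all probes tested, 2.38% were called higher and 15.7% lower, so the share of members called lower was near that of all probes. Ltf rose by 3.45 ± 0.74 (SE, limma adjusted p = 0.011), Mmp8 by 3.01 ± 0.62 (adjusted p = 0.0089), Ngp by 3.45 ± 1.18 (adjusted p = 0.063) and Retnlg by 3.53 ± 1.54 (adjusted p = 0.13). Stfa1 fell by 1.05 ± 0.26 (adjusted p = 0.02). Since db/db and WT lay on different slides, slide and group cannot be told apart within this pair. With slide as a fixed block, estimated through the treated groups, Ngp had 2.59 and Retnlg 3.01 and neither was called, while Stfa3 was called lower at -1.72. Camp, at 1.69 and not called, was called with quantile normalization at 1.87, when only the 4 arrays compared were fitted, with slide as a random block at 1.78 and without the first db/db array at 2.25. Stfa3 was also called without the second db/db array (-1.38) or the second WT array (-1.27). Retnlg was not called without any 1 of the 4 arrays, at 2.71 to 4.36, Ngp not without the second db/db array (2.32) or the first WT array (2.87), and Stfa1 not without the first db/db array (-0.68) or the second WT array (-0.93) or with quantile normalization (-0.85). Quantile normalization moved the median over all probes in this pair from -0.12 to 0.07. The erythroid sum was 27.0 to 67.5 in db/db and 4.21 to 12.9 in WT on these arrays.

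In db/db + estrogen vs db/db at labelled day 14, 3 of 10 genes were called, Camp, Ltf and Mmp8, all lower with estrogen, against 4% of 28245 probes, and none had a limma adjusted p below 0.05. The log2 fold change was -2.20 ± 0.80 (SE) for Camp, -2.28 ± 0.74 for Ltf and -1.95 ± 0.61 for Mmp8. Without the second db/db array none of the 3 was called, at -1.64, -1.73 and -1.66, and Camp and Mmp8 were also lost without the second estrogen array, at -1.64 and -1.02. In these same fits Stfa1 and Stfa3 were called higher with estrogen, at 1.07 and 1.27 without the second db/db array and at 1.02 and 1.62 without the second estrogen array, whereas Stfa2 was called lower without the first estrogen array (-1.29). Ngp was called lower with a floor on dim signals and without the first db/db array (-3.51). Both db/db arrays lay on 1 slide, and with slide as a fixed block Camp (-1.94) and Mmp8 (-1.35) were not called and Stfa3 was called higher (1.22). Mmp8 was not called either when only the 4 arrays compared were fitted. In db/db + vehicle vs db/db, 5 of 10 were called, against 7.67% of 29044 probes, and none after adjustment. Ngp, Camp, Ltf and Mmp8 were lower with vehicle, at -2.78 ± 1.18, -2.14 ± 0.80, -2.71 ± 0.74 and -1.80 ± 0.61, and Stfa3 was higher by 1.46 ± 0.45. Without the second db/db array Ngp was at -1.65, Camp at -1.58 and Mmp8 at -1.51, none of them called, and without the first db/db array Stfa3 was at 1.03 and not called. Without the first vehicle array the calls of Ngp (-2.96) and Camp (-2.10) ended, and without the second those of Ngp (-2.59), Camp (-2.17) and Mmp8 (-1.53). With slide as a fixed block Ngp (-2.35), Camp (-1.87) and Mmp8 (-1.20) were not called, and Stfa1 was called higher at 1.02, as it was without the second db/db array at 1.26. On the third slide, the 1 slide that held these groups together, the vehicle array minus the mean of the db/db arrays was -2.59 for Ngp and -2.42 for Ltf.

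In db/db + estrogen vs db/db + vehicle at labelled day 14, 0 of 10 genes were called by limma, against 1.04% of 28976 probes, and none of the 10 had an unadjusted p below 0.05. The log2 fold changes lay between -0.62 for Stfa3 and 0.43 for Ltf. Their standard errors ran from 0.26 to 1.53. Without the first estrogen array Stfa2 (-1.38) and Stfa3 (-1.41) were called. Against WT, 0 of 10 genes were called by limma with estrogen and 0 of 10 with vehicle, against 13.4% of 30273 and 13.5% of 30520 probes. Csf3r alone had an unadjusted p below 0.05 in either, with log2 fold changes of -0.99 ± 0.40 and -0.90 ± 0.40.

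**Figure D3:**
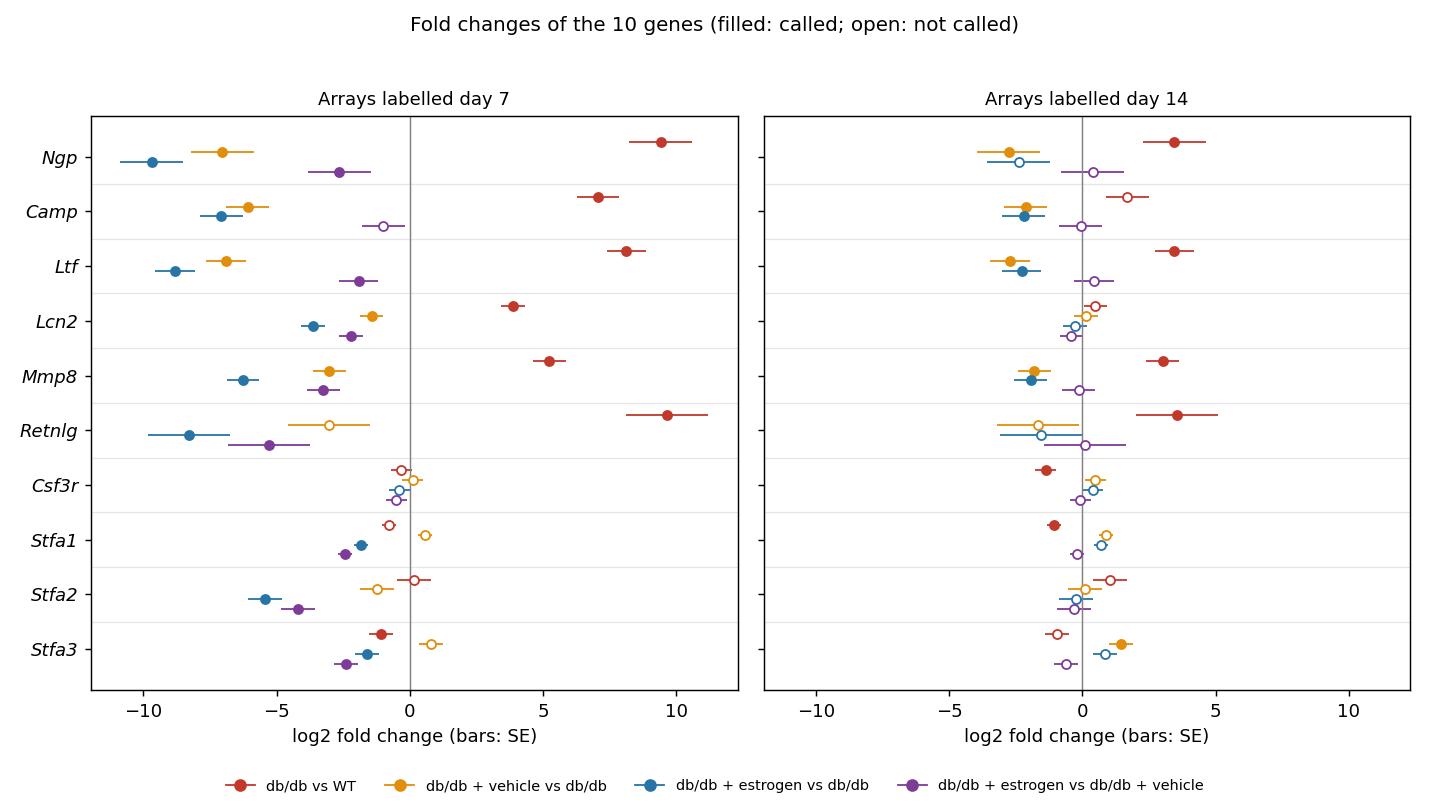
Log2 fold change (horizontal axis) of the 10 genes in 4 comparisons, on the left for arrays labelled day 7 and on the right for arrays labelled day 14. Points are limma estimates from 2 arrays a group, bars are standard errors and filled points were called; at labelled day 7 Ltf lies at 8.13 for db/db vs WT and at -8.82 for db/db + estrogen vs db/db.

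The labelled days were compared by the difference of each contrast between them, labelled day 7 minus labelled day 14. For db/db vs WT, 6 of 10 genes were called, against 9.57% of 30891 probes, and these were the granule genes and Retnlg. The difference was 5.39 ± 1.14 (SE) for Camp, 4.68 ± 1.05 for Ltf and 3.39 ± 0.62 for Lcn2, of which Lcn2 had a limma adjusted p of 0.041. Csf3r, at 1.05 ± 0.56 and not called, was called with slide as a fixed block and without any 1 of 3 arrays. For db/db + estrogen vs db/db, 9 of 10 were called, all but Csf3r, against 6.4% of 30431 probes. Stfa1 differed by -2.55 ± 0.37 (adjusted p = 0.042), Stfa2 by -5.18 ± 0.91 (adjusted p = 0.076) and Ltf by -6.54 ± 1.05 (adjusted p = 0.061). For db/db + vehicle vs db/db, 4 of 10 were called, Ngp, Camp, Ltf and Lcn2, against 2.94% of 30513 probes, and none had an adjusted p below 0.05. Each labelled day had a scan day of its own, which cannot be told apart from it in the levels, while each contrast here lies within 1 scan day. At labelled day 14, however, the db/db arrays lay on the third slide and the WT arrays on the fourth. The difference of db/db vs WT between the labelled days therefore also holds a difference between slides.

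The patterns of the members were set beside each other over the 16 arrays, which share groups and slides, so the correlations are descriptions. Ngp, Camp and Ltf had Pearson r of 0.95 to 0.97 with one another. Lcn2, Mmp8 and Retnlg had 0.89 to 0.94 with one another and 0.54 to 0.78 with the first 3. Stfa1, Stfa2 and Stfa3 had 0.73 to 0.91 among themselves and -0.04 to 0.67 with the granule genes and Retnlg. Csf3r had between -0.37 and 0.35 with the other 9.

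Among 17558 genes compared, the 4 most like the mean of Ngp, Camp and Ltf were Mpo (r = 0.937), Mrgpre (0.929), Ceacam10 (0.923) and Rab20 (0.904). Mpo spanned 7.36 on the log2 scale. The genes most like the mean of the 3 stefins were Fabp5 (0.939), a fatty acid binding protein gene, Csta3 (0.937), Cstdc5 (0.923), Krt16 (0.921) and Rhof (0.920). In this second set the group mean was lowest in db/db + estrogen at labelled day 7 for all 5 genes, 6.49 for Fabp5 against 7.39 to 7.81 in the other groups. In the first set it was highest in db/db at labelled day 7 for all 4, 1.78 for Mpo against -3.94 to -1.58 elsewhere. The genes were chosen for their likeness to these means, so the shared highest and lowest groups follow from the choice.

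**Figure D4:**
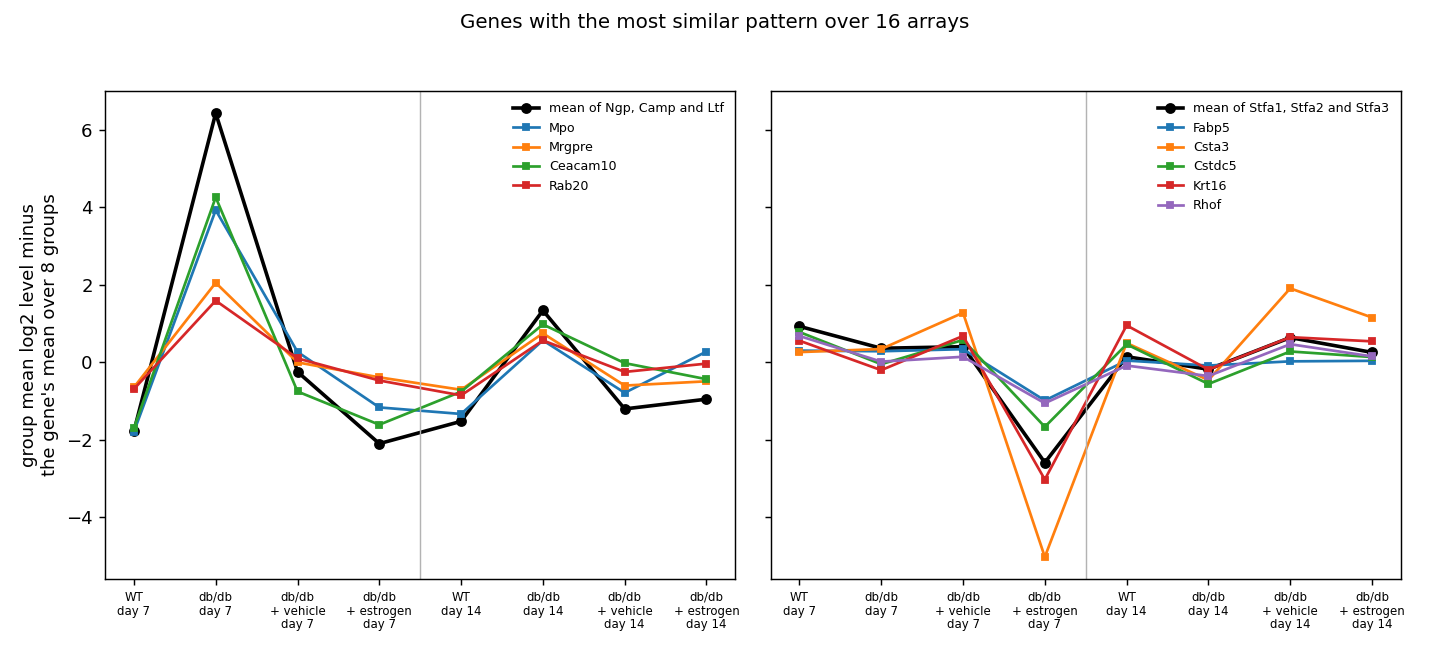
Group mean log2 level minus the mean of the gene over the 8 groups (vertical axis) for the mean of Ngp, Camp and Ltf with its 4 most similar genes on the left, and for the mean of the 3 stefins with its 5 most similar genes on the right. Lines join the groups only to guide the eye; the left set peaks in db/db at labelled day 7 (Mpo 1.78 before centring) and the right set is lowest in db/db + estrogen at labelled day 7 (Fabp5 6.49 before centring).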

How the data were processed

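Skin wounds were profiled on 16 one-colour Agilent mouse arrays. Per the labels, each sample was placed in 1 of 8 groups by treatment and day. The authors deposited scanner files made with Feature Extraction 11.0.1.1, whose spot intensity had background subtracted and spatial trends removed but was not scaled between arrays, with other marks such as the one for spots that stood well above background. In the deposited series matrix each value is a ratio, equal to a constant multiple of that intensity within each array to 0.1% for at least 99.4% of probes.

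Outlier spots were left out, spots of a probe were averaged, and log2 intensity minus the log2 75th percentile of the array was used. RefSeq accessions named 27427 probes (69.6%). A gene was read through its probe with the highest mean, and all probes of members are given. The members, lists and motifs were chosen with earlier results of these data known. The genes named are the members, the genes of the lists that a result turns on, and the 5 genes of most similar pattern to each of 2 means, of which 1 is not reported here, nor is 1 erythroid marker. Comparisons used limma 3.58.1 in R 4.3.3 with 1 coefficient for each of the 8 groups, and the script was tested on simulated data. The fold values of Ngp against WT set the brighter group against the higher of the dim probe and the lowest signal well above background on each array. They depend on the background correction and are not lower bounds. Promoters were aligned with scores of 1, -1 and -2 for a match, a mismatch and a gap.

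Alternatives were normexp (offset 50), quantile normalization, other filters, a floor, the series matrix, fitting the compared arrays alone, slide (statmod 1.5.0) or replicate number as a block, the mean of a gene's probes, Benjamini-Hochberg adjustment, and leaving out each array. With 2 arrays a group, precision is limited by their number.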

Additional observations from a re-analysis of the deposited data

Results flagged for a closer look

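The results here are differences of a contrast between the labelled days (labelled day 7 minus labelled day 14, log2 scale ± SE) that were called by limma (unadjusted p below 0.05, fold change above 2) in the test of the difference itself. Every one rests on 2 arrays a group, and no explanation was tested. For Ngp and Retnlg some WT or estrogen arrays of labelled day 7 were not well above background, so the size of their differences is uncertain.

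For db/db vs WT, the difference was 5.97 ± 1.68 for Ngp, 5.39 ± 1.14 for Camp, 4.68 ± 1.05 for Ltf, 3.39 ± 0.62 for Lcn2, 2.23 ± 0.87 for Mmp8 and 6.14 ± 2.18 for Retnlg. All 6 are positive, so db/db exceeded WT by more on the arrays labelled day 7. At labelled day 14 these 2 groups lay on different slides, and slide cannot be told apart from group there. Only Lcn2 had a limma adjusted p below 0.05 (0.041). The difference of Mmp8 ended without any 1 of 4 arrays, at 1.63 to 1.98, and that of Retnlg without the second WT array of labelled day 7 (3.46), the first db/db array of labelled day 14 (5.32) or the first WT array of labelled day 14 (5.69).

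For db/db + estrogen vs db/db, the difference was -7.30 ± 1.68 for Ngp, -4.87 ± 1.14 for Camp, -6.54 ± 1.05 for Ltf, -3.36 ± 0.62 for Lcn2, -4.31 ± 0.87 for Mmp8, -6.74 ± 2.18 for Retnlg, -2.55 ± 0.37 for Stfa1, -5.18 ± 0.91 for Stfa2 and -2.43 ± 0.64 for Stfa3. Of these 9, Stfa1 had a limma adjusted p below 0.05 (0.042). Retnlg was lost without the first estrogen array of labelled day 7, at -5.10.

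For db/db + vehicle vs db/db, the difference was -4.26 ± 1.68 for Ngp, -3.95 ± 1.14 for Camp, -4.19 ± 1.05 for Ltf and -1.57 ± 0.62 for Lcn2. None had a limma adjusted p below 0.05, and Ngp and Lcn2 were each lost without any 1 of several arrays, at -4.45 to -3.13 for Ngp and -1.65 to -1.10 for Lcn2. This contrast and the one before it share the db/db arrays.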

How the results depend on the processing

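Each called result for a single probe, other than those of a treated group against WT, was recomputed under each setting. The second Camp probe was taken on its own. Calls of a treated group against WT enter only the counts of genes called that are given below. Over these pairs of a result and a setting, 770 kept direction and call and 63 lost the call when the processing changed, 38 of them through Benjamini-Hochberg adjustment, and 312 kept and 56 lost it when 1 array was left out. No called result changed direction in these pairs. With Benjamini-Hochberg adjustment the number of member genes called was 3 for db/db + vehicle vs db/db and 5 for db/db + estrogen vs db/db + vehicle at labelled day 7, and 0 for each of the comparisons of either treated group with db/db at labelled day 14. For the differences between labelled days it was 1 for db/db vs WT, 1 for db/db + estrogen vs db/db and 0 for db/db + vehicle vs db/db. With slide as a fixed block it was 3 for db/db + vehicle vs db/db, 1 for db/db + estrogen vs WT and 1 for db/db + vehicle vs WT at labelled day 14. For db/db + estrogen vs WT at labelled day 14 it was 2 with normexp, 2 with quantile normalization and 2 in the fit of the compared arrays alone, and that fit gave 2 for db/db + vehicle vs WT as well. Leaving out 1 array in turn gave 3 to 6 calls for db/db + vehicle vs WT at labelled day 7. At labelled day 14 it gave 2 to 4 for db/db + vehicle vs db/db and 0 to 2 each for db/db + estrogen vs db/db + vehicle, db/db + estrogen vs WT and db/db + vehicle vs WT, and for the difference of db/db + vehicle vs db/db between labelled days 2 to 4. The cause of these changes was not tested.

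The log2 fold changes that changed sign, outside the comparisons of a treated group with WT, had not been called. Csf3r was at -0.073 with quantile normalization in db/db + vehicle vs db/db at labelled day 7, Stfa2 at 0.23 with slide as a fixed block in db/db + estrogen vs db/db at labelled day 14, and the second Camp probe at 0.037 with normexp in db/db + estrogen vs db/db + vehicle at labelled day 14. In the difference of db/db vs WT between labelled days, Stfa2 was at 0.055 and Stfa3 at 0.64 with slide as a fixed block, and Stfa3 at 0.015 with quantile normalization. When 1 array was left out at labelled day 7, the value ran from -0.67 to 0.032 for Csf3r and from -0.41 to 0.71 for Stfa2 in db/db vs WT, from -0.23 to 0.47 for Csf3r in db/db + vehicle vs db/db, and from -2.32 to 0.33 for Camp and -1.91 to 0.32 for its second probe in db/db + estrogen vs db/db + vehicle. At labelled day 14 it ran from -0.74 to 0.19 for Lcn2, -0.046 to 0.81 for Csf3r and -1.29 to 0.81 for Stfa2 in db/db + estrogen vs db/db, and from -0.33 to 0.60 for Lcn2 and -0.49 to 0.67 for Stfa2 in db/db + vehicle vs db/db. In db/db + estrogen vs db/db + vehicle of that day it ran from -0.28 to 1.06 for Ngp, -0.63 to 0.49 for Camp, -0.53 to 0.50 for its second probe, -1.06 to 0.78 for Mmp8, -0.73 to 0.95 for Retnlg, -0.52 to 0.34 for Csf3r, -0.50 to 0.12 for Stfa1, -1.38 to 0.71 for Stfa2 and -1.41 to 0.16 for Stfa3. For the differences between labelled days it ran from -0.078 to 0.66 for Stfa1 and -0.57 to 0.30 for Stfa3 in db/db vs WT, and from -0.69 to 0.041 for Stfa1 in db/db + vehicle vs db/db.

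Same-numbered arrays of 2 groups of a day had correlations of their deviations from the group means between -0.31 and 0.27, so the replicate numbers did not pair the arrays by the rule used. With the replicate number as a block, 6 genes were called for db/db vs WT and 7 for db/db + estrogen vs db/db + vehicle at labelled day 7, 5 for db/db vs WT and 4 for db/db + vehicle vs db/db at labelled day 14, and 3 for the difference of db/db + vehicle vs db/db between labelled days. The other counts were the same under the block. Of the 10 genes, Ngp was well above background on 13 of the 16 arrays, Retnlg on 15 and the others on all 16. The call of Ngp in db/db + estrogen vs db/db + vehicle at labelled day 7 also ended with a floor on dim signals, at -1.70, and, at an unchanged log2 fold change, with no filter on dim probes, in the fit of the compared arrays alone and with slide or replicate number as a block.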
